A study of Mus musculus with 8 samples.

Results

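The genes described here encode the proteins of the mitochondrial ribosome and the factors that run translation on it. They were chosen by symbol: all genes whose probe sets carried a symbol of the form Mrpl or Mrps followed by a number, plus the factor genes Gfm1, Gfm2, Tufm, Tsfm, Mtif2, Mtif3 and Mrrf. This gave 79 genes of the 13939 tested, with 46 Mrpl genes, 27 Mrps genes and 6 of the 7 factor genes. Mtif3 had no probe set of its own and was not analysed here. All 79 passed the filter on low values. Each gene is represented by the brightest of its probe sets, and 41 of the 79 had more than 1.

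Mitochondria carry a small genome that encodes core subunits of the respiratory chain, and these are made on a ribosome of their own. Its RNA is transcribed inside the organelle, whereas its proteins are encoded in the nucleus and imported. The large subunit (Mrpl genes, mostly) forms the peptide bond and the small subunit (Mrps genes, mostly) reads the messenger RNA. Many of these proteins have counterparts in bacterial ribosomes, and others are found only in mitochondria. Keratinocytes, the epithelial cells of the skin, use this machinery as other cells do.

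Expression was measured on 8 Affymetrix arrays, 2 in each of 4 groups, from mouse skin tumours whose Epcam-positive (epithelial) cells had been isolated by flow sorting. GOF papillomas, benign skin tumours, overexpressed NR2F2 (gain of function, by a means and in cells that the labels do not give) and were set against control papillomas with wild-type NR2F2. KO carcinomas (K5CreER;NR2F2fl/fl), squamous cell carcinomas with floxed Nr2f2 alleles and a CreER recombinase under the keratin 5 promoter, were set against Cre-negative control carcinomas. NR2F2, also called COUP-TFII, belongs to the orphan nuclear receptors, and the comparisons ask what its gain in papilloma and its loss in carcinoma did to expression. Age, sex and the way the tumours arose are not given in the sources used here, nor is it said whether a group's arrays stand for separate animals, so the p-values measure the spread between arrays alone, which may be technical.

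Values are log2 intensities. Papilloma arrays had medians of 3.12 to 3.16 and carcinoma arrays of 5.08 to 5.15, so each tumour type was read on its own scale and no level was compared between them. Background was set at the brightest of the 44 controls without a mouse target and lay at 3.09 to 3.33 on papilloma arrays and at 4.95 to 5.01 on carcinoma arrays. Nr2f2 stood at 11.43 and 11.47 on the GOF arrays, against 2.80 and 2.55 on the control papilloma arrays, and at 4.77 and 5.0 on the KO arrays, against 7.93 and 8.14 on the control carcinoma arrays. Of 6 keratinocyte markers, Krt5 was at 12.35 or above on all 8 arrays. In GOF papilloma 2 of the 6 were positive, with a median log2 fold change of -0.29, and Itga6 (-0.45) and Trp63 (-0.37) lay below both controls. In KO carcinoma 1 of the 6 was positive (median -0.09) and 0 were called. The log2 of the list's summed level was 13.5 to 13.6 in GOF papilloma against 13.6 to 13.7 in control papilloma, and 14.2 to 14.3 in KO carcinoma against 14.2 to 14.4 in control carcinoma. Epcam, the sorting marker, was at 9.0 and 8.68 in GOF papilloma against 10.17 and 10.57 in control papilloma (log2 fold change -1.53, adjusted p = 0.0372 by limma).

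No gene of the mitochondrial ribosome passed the test in either comparison, but most had higher values with NR2F2 gained in papilloma and also with Nr2f2 lost in carcinoma. In GOF papilloma 72 of the 79 genes had a positive log2 fold change, with a median of 0.38 and a range of -0.42 to 1.08. In KO carcinoma 71 of the 79 were positive, with a median of 0.36 and a range of -0.28 to 0.86. The medians over all genes tested were 0.02 and 0.0060. A positive fold change was found for 53.5% of all genes in GOF papilloma and 51% in KO carcinoma. Many of all genes tested were dim: 2767 to 4458 of the 13939 were at or below background on an array, against 0 to 2 of the 79. Among genes with a mean above background, a set chosen after seeing the data, 55.8% of 10227 were positive in papilloma (71 of 78 of the ribosome genes) and 53.7% of 10937 in carcinoma (70 of 78).

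With limma across all genes and Benjamini-Hochberg adjustment (threshold 0.05), 0 of the 79 genes were called in GOF papilloma, where 1.21% of all genes were called, and the lowest adjusted p was 0.0791. In KO carcinoma 0 of the 79 were called, where 0.0143% of all genes were called, and the lowest adjusted p was 0.119. At an unadjusted limma p under 0.05, 24 were higher and 0 lower in GOF papilloma, against 9.94% of all genes higher and 6.47% lower. The counts in KO carcinoma were 22 higher and 0 lower, against 8.34% and 5.44% of all genes. Among genes above background these shares were 13.1% higher and 8.23% lower in GOF papilloma, and 10.3% and 6.22% in KO carcinoma. With 2 arrays against 2, an exact permutation test cannot give a p below 0.33. Because the cells were measured in bulk, more or fewer cells of a type and more or less RNA per cell cannot be told apart.

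**Figure D1:**
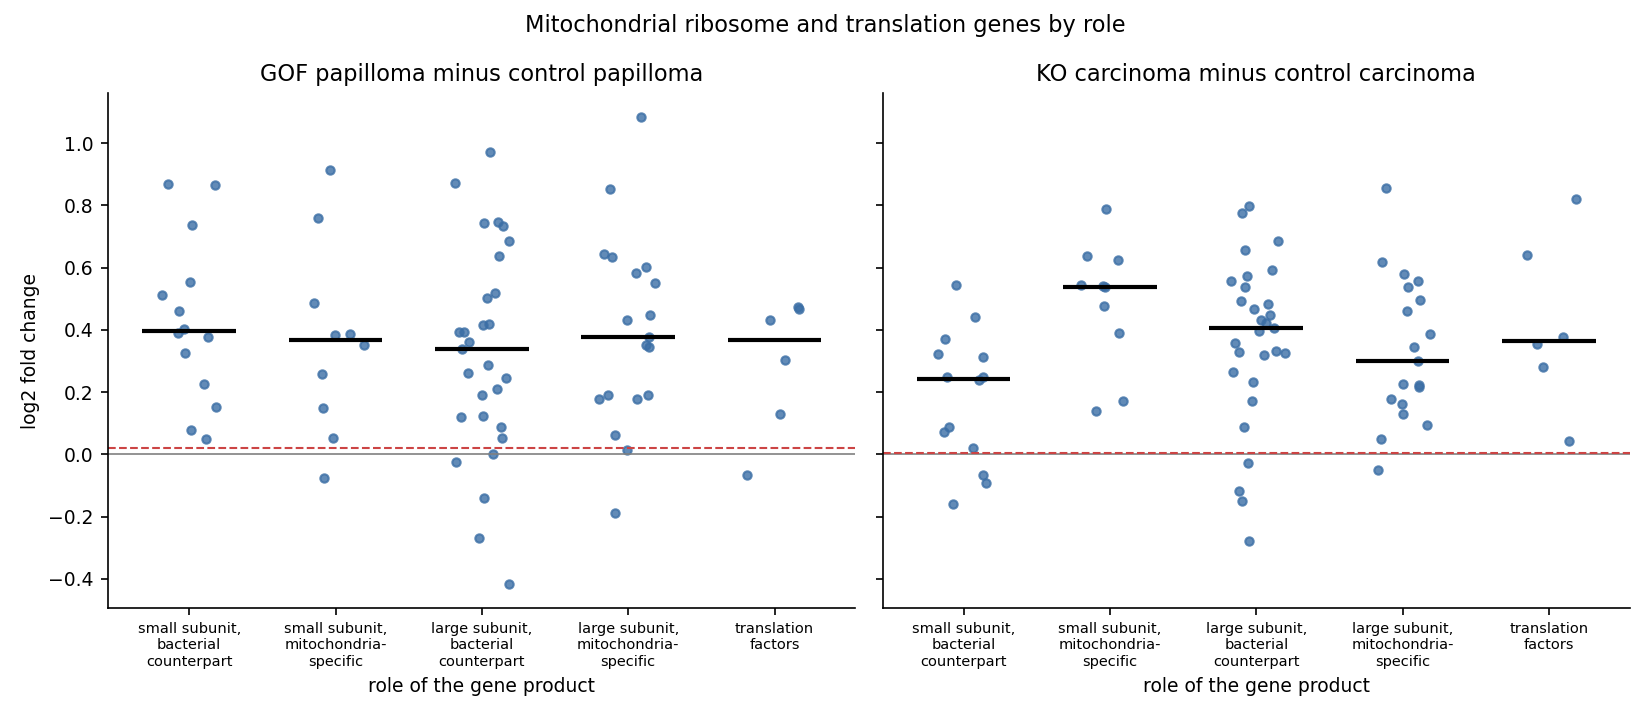
Log2 fold change (vertical axis) of each gene of the mitochondrial ribosome and its translation factors, grouped by role of the product (horizontal axis), in GOF papilloma minus control papilloma (left) and KO carcinoma minus control carcinoma (right). Each point is 1 gene, black bars are group medians and the dashed line is the median of all genes tested; Mrps36, placed in another complex, is not drawn. All role medians lie above the dashed line in both panels, from 0.24 to 0.54.

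Both arrays of the altered tumours lay above both controls for 50 genes in GOF papilloma, where 27.3% of all genes did so, and for 46 genes in KO carcinoma, where 23.8% did. Among genes above background the shares were 31.2% and 26.7%. With an array left out the rule compares fewer array pairs, so such a count can rise and cannot fall. Both lay below the controls for 3 genes in GOF papilloma (21.3% of all genes) and for none of the 79 in KO carcinoma (19.1%). In all 4 array pairs 3 genes were at least 1.5-fold higher in GOF papilloma (3.9% of all genes), namely Mrpl27, Mrpl49 and Mrps14. Gfm1 and Mrpl9 were so in KO carcinoma (1.42% of all genes). Leaving an array out loosened this rule in the same way, and the share of all genes under the looser rule is not given here. In GOF papilloma the count was 27 without control papilloma replicate 1 and 13 without GOF replicate 2, and in KO carcinoma it was 21 without control carcinoma replicate 1, 9 without KO replicate 1 and 5 without control carcinoma replicate 2. At least 1.5-fold lower in all pairs were 0 of the 79 in GOF papilloma (2.19% of all genes) and 0 in KO carcinoma (1.48%).

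The size of the difference varied with the control array. Over the 79 genes the median difference between GOF and control papilloma arrays was 0.33 and 0.14 for GOF replicates 1 and 2 against control replicate 1, and 0.62 and 0.45 against control replicate 2. In carcinoma it was 0.16 and 0.21 for KO replicates 1 and 2 against control replicate 1, and 0.55 and 0.53 against control replicate 2. All 8 pair medians were positive, and in both tumour types control replicate 2 had the lower values for most of the genes, by medians of 0.25 in papilloma and 0.30 in carcinoma. Without control papilloma replicate 1 the GOF median was 0.53, and without replicate 2 it was 0.23. Without control carcinoma replicate 1 the KO median was 0.54, and without replicate 2 it was 0.20.

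**Figure D2:**
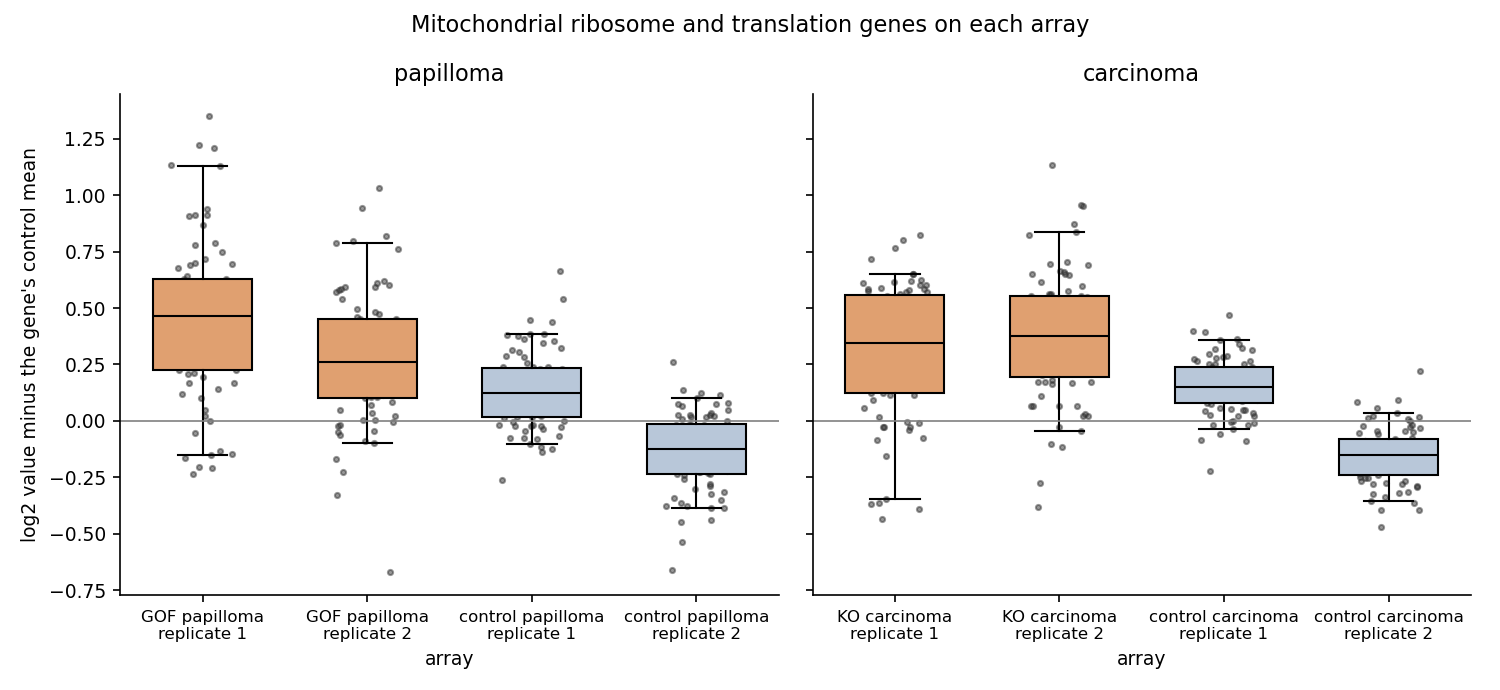
Log2 value of each of the 79 genes minus the gene's mean over the 2 control arrays of the same tumour type (vertical axis), by array (horizontal axis). Points are genes, boxes show the quartiles and median, and whiskers run to the 5th and 95th percentiles. In each tumour type the lowest box is control replicate 2, and the medians of the GOF and KO boxes lie above those of both control boxes.

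Among large-subunit proteins with bacterial counterparts (29 genes), the median log2 fold change was 0.34 in GOF papilloma. Of these, 18 lay above and 3 below both controls, against 27.3% and 21.3% of all genes. In KO carcinoma the median was 0.41, with 19 above and 0 below, against 23.8% and 19.1% of all genes. Mrpl27 (bL27), whose bacterial counterpart reaches toward the peptidyl transferase centre, had the smallest p of all 79 genes in GOF papilloma. Its probe set read 7.44 and 7.56 on the GOF arrays against 6.68 and 6.38 on the control papilloma arrays, with no overlap. The log2 fold change was 0.97 (SE 0.20, adjusted p = 0.0791 by limma). Each SE and p rests on 1 spread per gene drawn from all 8 arrays, so a gene's SE is the same in both comparisons. In carcinoma Mrpl27 read 8.81 and 8.76 on the KO arrays against 8.61 and 8.11 on the control arrays, and the log2 fold change was 0.42 (SE 0.20, adjusted p = 0.426 by limma). Its dimmer probe set was at or below background in control papilloma and gave 0.32 in KO carcinoma, just above background. Leaving out either control carcinoma array, which changes the pooled spread and not the papilloma values, brought the limma adjusted p of Mrpl27 to 0.0461 and that of Mrps14 in papilloma to 0.0399.

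Gfm1, the mitochondrial elongation factor EF-G1 that moves the ribosome along the messenger RNA, had the smallest p of the 79 genes in KO carcinoma. It read 8.92 and 8.95 on the KO arrays against 8.16 and 8.07 on the control carcinoma arrays, a log2 fold change of 0.82 (SE 0.12, adjusted p = 0.119 by limma). On the GOF arrays it read 6.51 and 6.43 against 5.95 and 6.05 on the control papilloma arrays, a log2 fold change of 0.47 (SE 0.12, adjusted p = 0.128 by limma). The groups did not overlap in either tumour type. The probe set read here may also match related transcripts. The dimmer probe set of Gfm1, not of that type and below background in papilloma, gave 0.64 in KO carcinoma.

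The promoters of these 2 genes, the ones with the smallest p in each comparison, are shown to let the motifs be seen. They are RefSeq sequences of build GRCm38.p6, from 250 bases before the transcript start to 10 bases after it, written along the gene. Capitals mark the motif CCGGAAG, which ETS family factors such as GABP bind, and in Gfm1 also TGACCT, the reverse complement of the hexamer AGGTCA that nuclear receptors bind.
Mrpl27, chr11:94653541-94653800, plus strand: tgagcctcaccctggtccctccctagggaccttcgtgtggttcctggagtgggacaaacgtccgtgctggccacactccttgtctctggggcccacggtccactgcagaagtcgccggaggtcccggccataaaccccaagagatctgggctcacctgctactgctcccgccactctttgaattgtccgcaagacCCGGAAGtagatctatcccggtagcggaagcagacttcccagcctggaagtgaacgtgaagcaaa
Gfm1, chr3:67429865-67430124, plus strand: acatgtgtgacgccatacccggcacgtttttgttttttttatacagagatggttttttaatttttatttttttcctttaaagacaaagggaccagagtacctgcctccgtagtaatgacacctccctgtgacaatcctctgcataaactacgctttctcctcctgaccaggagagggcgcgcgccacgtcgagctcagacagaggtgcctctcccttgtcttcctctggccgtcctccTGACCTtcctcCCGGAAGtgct
In Mrpl27 the ETS motif began 55 bases before the start. In Gfm1 it began at the base before the start, and the hexamer began 12 bases before it, on the opposite strand.

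Promoters were at hand for 71 of the 79 genes (77 promoters, as some genes have several starts, each 300 bases long with 50 bases after the start), and 5 motifs were searched on both strands. CCGGAAG was found in 26 of the 77 (33.8%), against 14.7% of the 14067 promoters of tested genes and 8.86% of all 32851. AAGATGG, the core that the factor YY1 binds, was found in 13 (16.9%), against 6.68% and 6.34%. GCATGCG, part of the palindrome bound by NRF1, was in 7 (9.09%), against 5.54% and 3.58%. The E-box CACGTG was in 6 (7.79%, against 9.23% and 7.15%), and the hexamer AGGTCA, which COUP-TF receptors bind as paired copies, was in 11 (14.3%, against 13.7% and 16.3%). Median GC content was 59.0% in the 77 promoters and 59.7% in those of tested genes. Overlapping start sites of 1 gene, such as the 3 listed for Mrpl2, count as separate promoters.

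Fold changes of the genes with and without a motif were then set side by side. In GOF papilloma the median log2 fold change was 0.42 for the 26 genes with CCGGAAG and 0.36 for the 45 without. In KO carcinoma it was 0.24 with the motif and 0.37 without. For the hexamer AGGTCA the medians were 0.39 for the 11 genes with it and 0.38 for the 60 without in GOF papilloma, and 0.24 and 0.36 in KO carcinoma. These are descriptions of letters in a window, with no test.

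Of the other large-subunit genes with bacterial counterparts, Mrpl11, Mrpl18 and Mrpl28 were among the 10 smallest p in GOF papilloma. Mrpl11 (uL11), part of the stalk base where elongation factors dock, read 9.03 and 9.12 on the GOF arrays against 8.45 and 8.20 on the controls. Its log2 fold change was 0.74 (SE 0.17, adjusted p = 0.0993 by limma), from a probe set that may also match related transcripts. Another of its probe sets, not of that type, gave 0.73 in GOF papilloma and 0.46 in KO carcinoma. The probe set that failed the filter gave -0.03 and -0.08. Mrpl18 (uL18), which in human mitochondria helps to import 5S RNA, read 8.94 and 9.04 against 8.48 and 8.0 on the controls (log2 fold change 0.75). Mrpl28 read 7.12 and 6.85 against 6.27 and 6.24 (0.73). In each of these 3 the GOF arrays lay above both controls, and the KO arrays did so as well, with log2 fold changes of 0.41, 0.56 and 0.47.

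In KO carcinoma the large-subunit genes among the 10 smallest p included Mrpl19, Mrpl9, Mrpl2 and Mrpl16. Mrpl19 (bL19) read 9.03 and 9.40 on the KO arrays against 8.56 and 8.33 on the control arrays, a log2 fold change of 0.77 (SE 0.17, adjusted p = 0.150 by limma). Its 4 probe sets did not agree: 1 gave -0.22 in KO carcinoma and -0.79 in GOF papilloma, whereas the other 3 were positive in both, 1 of them near background in papilloma. Mrpl9 (bL9) read 9.78 and 9.85 on the KO arrays against 9.16 and 9.16 on the controls, and both of its probe sets were higher (0.66 and 0.76). Mrpl2 (uL2), close to the catalytic centre, read 9.65 and 9.52 against 9.07 and 8.92 (0.59), and Mrpl16 (uL16) read 9.33 and 9.45 against 9.01 and 8.78 (0.49). In all 4 the KO arrays lay above both controls.

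A few large-subunit genes had lower values. Mrpl23 (uL23), which sits at the exit of the peptide tunnel, was the single gene of the 79 with a negative log2 fold change in both comparisons (-0.27 in GOF papilloma and -0.28 in KO carcinoma). Mrpl1 (uL1), at the stalk where spent tRNA leaves, read 4.78 and 4.28 on the GOF arrays against 4.81 and 5.08 on the control papilloma arrays, a log2 fold change of -0.42 (SE 0.22, adjusted p = 0.421 by limma). On the KO arrays Mrpl1 read 9.27 and 9.0 against 8.60 and 8.29 on the controls, a log2 fold change of 0.69 (SE 0.22, adjusted p = 0.262 by limma). Of its other 2 probe sets, 1 was below background in all groups, and 1 gave 0.35 in GOF papilloma, of the opposite sign, and was below background in carcinoma. Mrpl14 and Mrpl17 were positive in GOF papilloma (0.69 and 0.42) and negative in KO carcinoma (-0.12 and -0.15), where their groups overlapped. Mrpl47 was at or below background on all 4 papilloma arrays and both control carcinoma arrays, and its values there carry no order.

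Among large-subunit proteins found only in mitochondria (19 genes), the median was 0.38 in GOF papilloma, with 13 above both controls (27.3% of all genes). In KO carcinoma it was 0.30, with 10 above (23.8% of all genes). Mrpl49 had the largest log2 fold change of the 79 in GOF papilloma. It read 5.98 and 5.71 on the GOF arrays against 5.06 and 4.46 on the control papilloma arrays, a log2 fold change of 1.08 (SE 0.25, adjusted p = 0.102 by limma). Its other probe set gave 0.16, so the size rests on 1 probe set. In KO carcinoma Mrpl49 overlapped its controls (0.16), whereas its other probe set, the brighter one in carcinoma, gave 0.38. Mrpl38 and Mrpl53 were also among the 10 smallest p in GOF papilloma, at 0.85 and 0.64.

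Mrpl50 had the largest log2 fold change in KO carcinoma. It read 8.69 and 9.24 on the KO arrays against 7.89 and 8.33 on the controls, a log2 fold change of 0.86 (SE 0.26, adjusted p = 0.236 by limma), and its other probe set gave 0.64. Its arrays in papilloma overlapped (0.19). Mrps30, which despite its name belongs to the large subunit, read 7.92 and 8.01 on the KO arrays against 7.50 and 7.20 on the controls (0.62), and overlapped in papilloma (0.01). Mrpl42 was positive in both, at 0.45 in GOF papilloma and 0.54 in KO carcinoma, and Mrpl58, a peptide release factor built into the large subunit, gave 0.55 and 0.56.

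**Figure D3:**
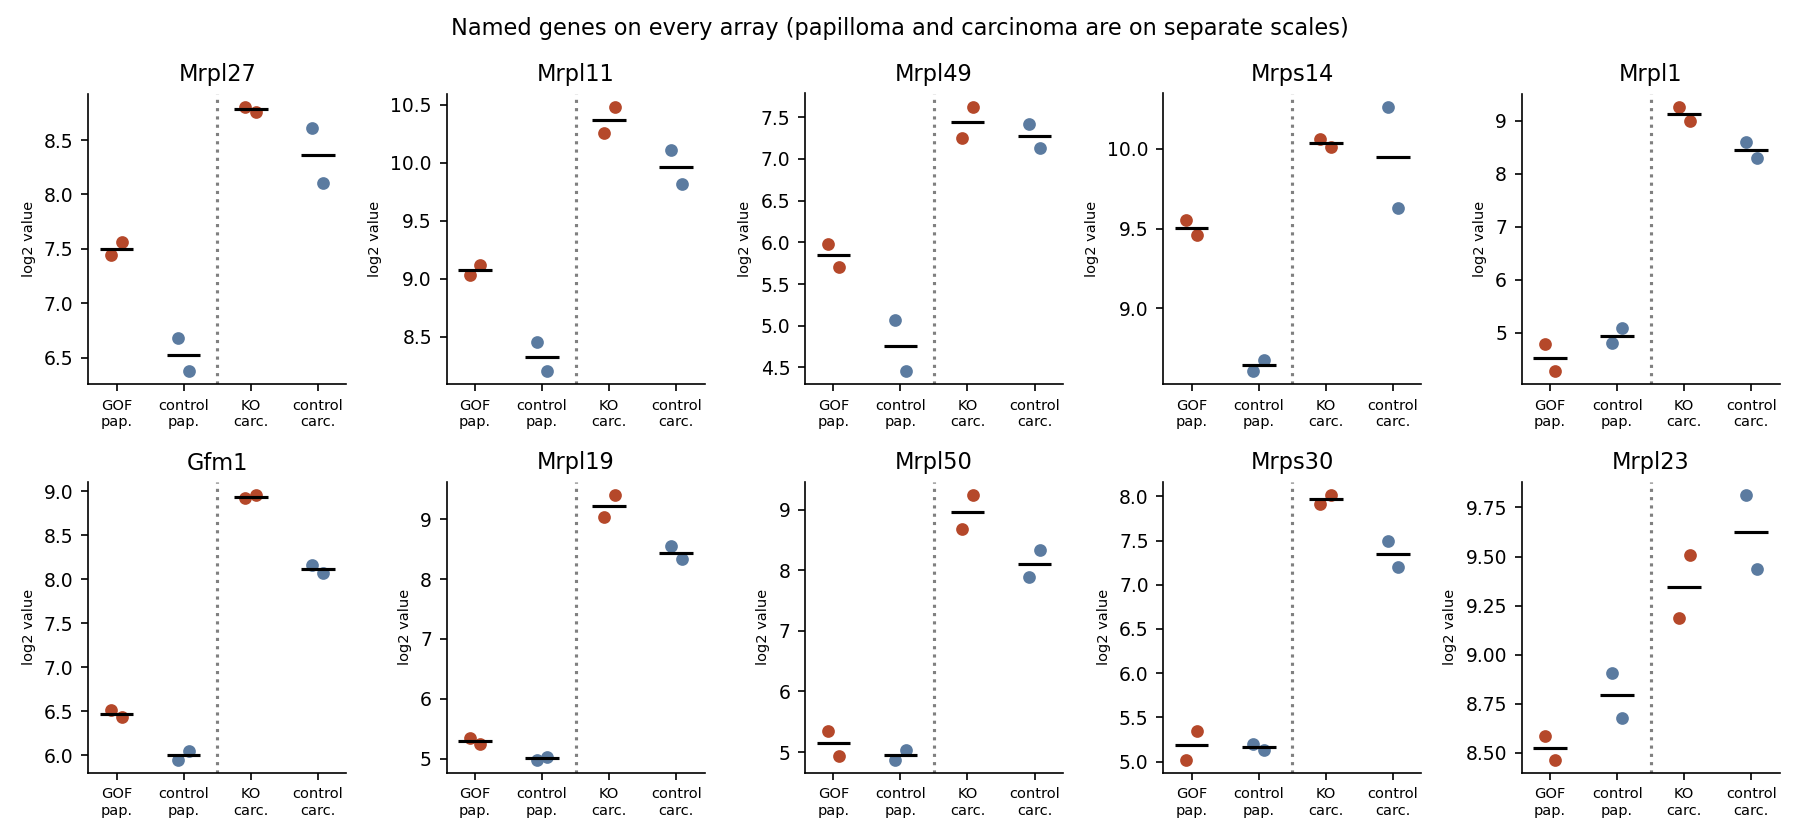
Log2 intensity (vertical axis) of the brightest probe set on each array for 10 genes, by group (horizontal axis). Each point is 1 array and short bars are the mean of 2 arrays; papilloma and carcinoma are on separate scales and are not to be compared. Mrpl27 and Gfm1 lie above their controls in both tumour types, whereas Mrpl49 and Mrps14 do so in papilloma and Mrpl50 and Mrps30 in carcinoma; Mrpl23 lies below its controls in papilloma and overlaps them in carcinoma.

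In the small subunit the order of the classes differed between the comparisons. For proteins with bacterial counterparts (14 genes) the median was 0.40 in GOF papilloma, with 10 above both controls (27.3% of all genes). In KO carcinoma it was 0.24, with 3 above, a count near the share of all genes (23.8%). At an unadjusted limma p under 0.05, 0 of these 14 were higher in KO carcinoma. For proteins found only in mitochondria (10 genes) the median was 0.37 in GOF papilloma, with 5 above, and 0.54 in KO carcinoma, with 8 above. Whether these medians differ was not tested. Over the whole small subunit (24 genes) the medians were 0.38 and 0.32, and over the large subunit (48 genes) 0.36 and 0.37.

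Mrps14 (uS14), in the head of the small subunit, read 9.55 and 9.46 on the GOF arrays against 8.61 and 8.68 on the control papilloma arrays, a log2 fold change of 0.86 (SE 0.21, adjusted p = 0.114 by limma). In carcinoma it read 10.06 and 10.01 on the KO arrays against 10.26 and 9.63 on the controls and overlapped (0.09). Mrps26 read 7.15 and 6.79 on the GOF arrays against 6.44 and 5.98 on the controls (0.76), and 8.78 and 8.89 on the KO arrays against 8.38 and 8.03 on the controls (0.64). Mrps26 lay above its controls in both tumour types, whereas Mrps14 did so in papilloma by its brightest probe set. The next brightest probe set of Mrps14 gave 0.46 in GOF papilloma and 0.30 in KO carcinoma.

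Mrps22, a mitochondria-specific protein, read 8.58 and 8.81 on the KO arrays against 8.24 and 8.06 on the controls (0.54, SE 0.14, adjusted p = 0.198 by limma), and overlapped in papilloma (0.05). Of the related Mrps18 proteins, Mrps18a and Mrps18b were counted among the mitochondria-specific ones, and Mrps18c was not analysed here. Mrps18a, in the large subunit, gave 0.19 in GOF papilloma and 0.58 in KO carcinoma. Mrps18b, in the small subunit, gave -0.07 and 0.48. Mrps6 and Mrps11 were the small-subunit genes with the lowest values in KO carcinoma (-0.16 and -0.09), and both overlapped their controls. Mrps36, now placed in the oxoglutarate dehydrogenase complex, gave 0.12 and 0.37.

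Some genes with large fold changes also had a wide spread between arrays of a group. Mrps12 (uS12), which lines the decoding centre, read 7.84 and 6.88 on the GOF arrays against 7.15 and 5.83 on the controls, and its groups overlapped (0.87, SE 0.51). Mrps25 read 7.22 and 6.63 on the GOF arrays against 6.39 and 5.64 on the controls, with no overlap (0.91, SE 0.35), whereas its other 2 probe sets gave -0.06 and 0.10. Mrpl20 read 8.05 and 7.53 against 7.14 and 6.69, again with no overlap (0.87, SE 0.35). In each the control replicate 2 array was the lowest of the 4.

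In KO carcinoma Mrpl35 (bL35) read 8.84 and 8.99 on the KO arrays against 8.33 and 7.90 on the controls (0.80, SE 0.26), and Mrps35 read 9.06 and 9.39 against 8.58 and 8.30 (0.79, SE 0.35). Mrps27, which belongs to the pentatricopeptide repeat family, read 8.70 and 8.75 on the KO arrays against 8.02 and 8.19 on the controls (0.63, SE 0.25). None of the 3 passed the limma test, and in papilloma all of them overlapped their controls. Their SEs pool both tumour types. The standard deviation of the control papilloma arrays was 0.50 for Mrpl35, 0.76 for Mrps35 and 0.54 for Mrps27. On the control carcinoma arrays it was 0.30, 0.19 and 0.12, and on the KO arrays 0.11, 0.23 and 0.04. Mrpl52 differed little between arrays, at 10.73 and 10.65 on the GOF arrays against 10.73 and 10.53 on the controls, and at 10.79 and 10.64 on the KO arrays against 10.82 and 10.52.

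The translation factors (6 genes) had a median of 0.37 in GOF papilloma, with 3 above both controls (27.3% of all genes). In KO carcinoma it was 0.37, with 5 above (23.8% of all genes). Tufm, which encodes EF-Tu and brings aminoacyl-tRNA to the ribosome, read 7.92 and 7.73 on the GOF arrays against 7.72 and 7.0 on the controls (0.47), and 8.11 and 8.56 on the KO arrays against 7.94 and 7.98 on the controls (0.38). Tsfm, which recharges EF-Tu with nucleotide, gave 0.30 in GOF papilloma, near background with overlap, and 0.64 in KO carcinoma, where the KO arrays read 7.0 and 7.12 against 6.40 and 6.44. Gfm2, which splits the ribosome for recycling, gave 0.43 and 0.28, with the control papilloma arrays at 3.04 and 3.10, near background. Mrrf, the recycling factor that works with Gfm2, gave 0.13 and 0.35. Mtif2, the initiation factor IF-2, gave -0.07 and 0.04 and overlapped in both tumour types.

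**Figure D4:**
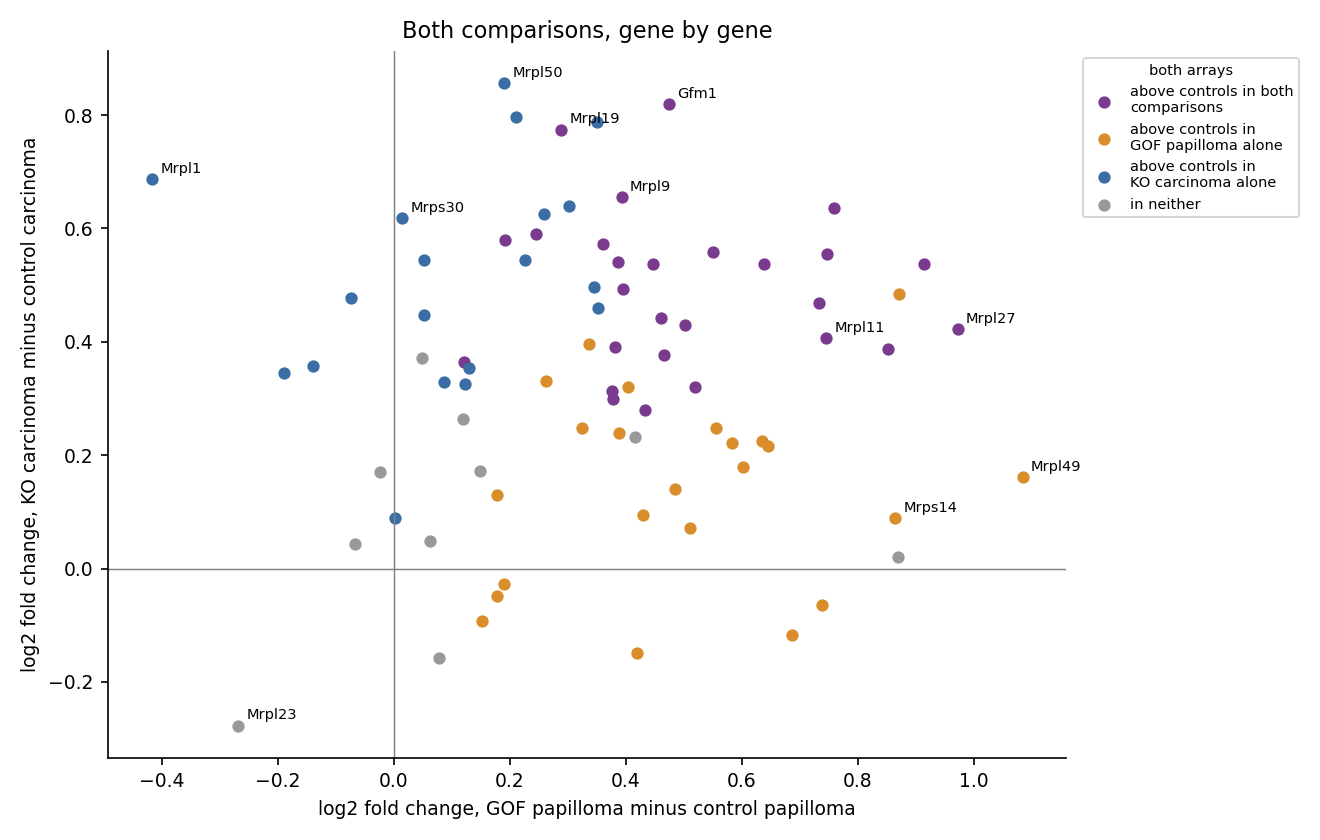
Log2 fold change in KO carcinoma minus control carcinoma (vertical axis) against that in GOF papilloma minus control papilloma (horizontal axis), 1 point per gene for the 79 genes, coloured by whether both arrays lay above both controls. The upper right quadrant holds 65 genes and the points form no line across it.

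Most genes were positive in both comparisons, and the sizes were not correlated across genes. A positive log2 fold change in both was found for 65 of the 79 genes, against 28.2% of all genes, and 27 genes lay above both controls in both, against 7.4% of all genes. The counts of each comparison, multiplied as if independent, would give 64.7 and 29.1 genes. These 27 made up 54.0% of the 50 above in GOF papilloma and 58.7% of the 46 above in KO carcinoma. Across the 79 genes, which share arrays and are not independent, the log2 fold changes had a Pearson correlation of 0.0141 and a Spearman correlation of 0.000511. Over all genes tested the Pearson correlation was -0.0226. The papilloma and carcinoma comparisons used different control arrays. For the difference between the effects (GOF effect minus KO effect), limma called 0 of the 79 genes, where 0.0789% of all genes were called, and the lowest adjusted p was 0.221 (Mrpl1). At an unadjusted p under 0.05 there were 8, where 14.2% of all genes passed. Mrpl1 and Mrpl21 lay below both controls in GOF papilloma and above both in KO carcinoma, where 9.38% of all genes had groups apart in opposite directions.

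Positive values were also common among the probe sets that did not stand for a gene. For the 35 genes with another probe set past the filter, the next brightest one was positive in 30 genes in GOF papilloma, with a median of 0.30, where the brightest had 32 positive and a median of 0.42. In KO carcinoma the next brightest was positive in 32 genes, with a median of 0.27, against 32 and 0.35 for the brightest. A sign at background carries no weight, and 7 of the 35 in papilloma and 6 in carcinoma had a mean at or below it. Of the 28 above background in papilloma, 25 were positive with a median of 0.37, and 24 shared the sign of the brightest. Of the 29 in carcinoma, 27 were positive with a median of 0.29, and 27 shared the sign.

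Other parts of mitochondrial gene expression had smaller or mixed differences in GOF papilloma and positive ones in KO carcinoma. No gene of the mitochondrial, ribosomal and proliferation lists that follow passed the limma test in either comparison. The mitochondrial aminoacyl-tRNA synthetases and related enzymes, which load the tRNAs, had a median of 0.12 in GOF papilloma (13 of 18 positive) and 0.32 in KO carcinoma (18 of 18). Genes of ribosome assembly and rRNA modification had medians of -0.01 (10 of 20 positive) and 0.34 (16 of 20). On papilloma arrays their median level was 3.65 to 3.84, near background, with 3 to 6 of the 20 at or below it. The synthetase list had median levels of 4.54 to 4.91 there, against 6.66 to 7.44 for the 79 genes. What these low levels did to the papilloma fold changes was not tested. Rcc1l, an assembly factor, read 7.05 and 6.52 on the KO arrays against 5.50 and 5.30 on the controls (log2 fold change 1.39, adjusted p = 0.119 by limma). It was at or below background on the papilloma arrays. Noa1, a GTPase of assembly, gave 0.96 in KO carcinoma and 0.0033 in GOF papilloma.

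Mitochondrial transcription and RNA processing had medians of 0.06 (12 of 22 positive) in GOF papilloma and 0.38 (22 of 22) in KO carcinoma. The median level of this list on papilloma arrays was 3.94 to 4.49, with 3 of the 22 genes at or below background on each array. Lrpprc, which stabilises mitochondrial messenger RNA, was positive in both, at 0.92 (adjusted p = 0.116 by limma) and 0.84 (adjusted p = 0.201 by limma). Of 7 genes listed as other translation factors 3 were tested, among them Oxa1l, which is not such a factor. Of these 3, 1 was positive in GOF papilloma (median -0.34) and 3 in KO carcinoma (median 0.29). Mtres1, which acts on stalled mitochondrial ribosomes, read 7.35 and 7.43 on the GOF arrays against 6.85 and 6.71 on the controls (0.61, adjusted p = 0.106 by limma), and gave 0.17 in KO carcinoma. Guf1 was near background in papilloma. Oxa1l, the insertase that places new proteins in the inner membrane, read 7.18 and 7.23 on the GOF arrays against 7.81 and 7.73 on the controls (-0.56, adjusted p = 0.131 by limma), and 10.09 and 10.39 on the KO arrays against 9.60 and 9.72 on the controls (0.58, adjusted p = 0.189 by limma). Mitochondrial chaperones and proteases had medians of 0.20 (6 of 10 positive) and 0.47 (10 of 10), and the 4 mitoribosomal proteins with other symbols 0.19 (4 of 4) and 0.50 (4 of 4).

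Among regulators of mitochondrial biogenesis, 2 of 8 genes were positive in GOF papilloma (median -0.25) and 7 of 8 in KO carcinoma (median 0.19). Myc, a growth regulator that also drives ribosome genes, read 7.85 and 8.13 on the GOF arrays against 9.06 and 8.53 on the controls (-0.80, adjusted p = 0.155 by limma). In carcinoma Myc read 9.59 and 9.99 on the KO arrays against 9.68 and 9.77 on the controls and overlapped (0.07). Gabpb1, a subunit of the ETS family factor GABP, was below its controls in both, at -0.37 and -0.47. Pprc1, a coactivator related to PGC-1, gave -0.40 in GOF papilloma and 0.48 in KO carcinoma.

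**Figure D5:**
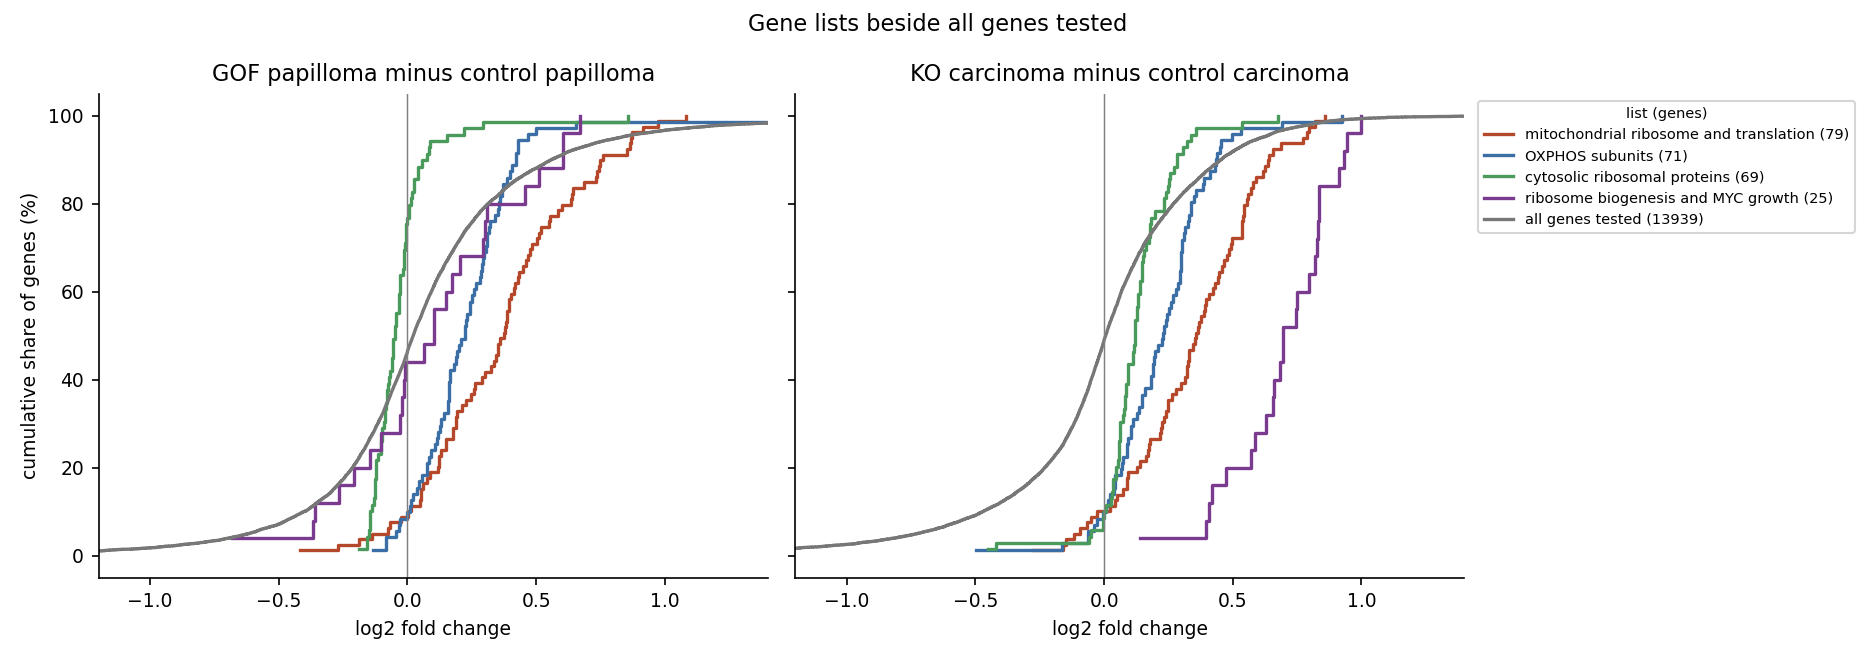
Cumulative share of genes in percent (vertical axis) by log2 fold change (horizontal axis) for the mitochondrial ribosome and translation genes, 3 other gene lists and all genes tested, in GOF papilloma minus control papilloma (left) and KO carcinoma minus control carcinoma (right). The mitochondrial ribosome curve lies right of all genes in both panels, the cytosolic ribosome curve centres on -0.05 and 0.12, and the ribosome biogenesis curve has a median of 0.10 on the left and 0.70 on the right.

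Subunits of the respiratory chain and the ATP synthase that are encoded in the nucleus are imported and not made by the mitochondrial ribosome. The genes listed for them had medians of 0.22 in GOF papilloma (64 of 71 positive) and 0.23 in KO carcinoma (64 of 71). Above both controls lay 55 in GOF papilloma (27.3% of all genes) and 27 in KO carcinoma (23.8%). In carcinoma their median difference was 0.14 and -0.05 for KO replicates 1 and 2 against control replicate 1. Against control replicate 2 it was 0.45 and 0.31. The proteins of the cytosolic ribosome had medians of -0.05 (16 of 69 positive) and 0.12 (63 of 69). Genes of ribosome biogenesis and MYC-driven growth had medians of 0.10 (14 of 25 positive) and 0.70 (25 of 25). S phase genes had medians of 0.38 (18 of 22) and 0.64 (22 of 22), and genes of G2 and mitosis of 0.58 (19 of 20) and 0.74 (20 of 20). Proliferation genes thus had higher values in the same arrays, and their part in the result was not tested.

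Markers of other cell types also moved with the GOF comparison. Of 12 macrophage markers 12 were positive and 3 were called, with Lyz2 at 7.85 and 8.54 on the GOF arrays against 2.98 and 2.29 on the controls (at least 33.6-fold higher, as the controls were at background; adjusted p = 0.0128 by limma). The log2 of their summed levels was 9.58 to 10.6 in GOF papilloma and 6.78 to 6.79 in control papilloma, where 5 of the 12, among them Lyz2, were at or below background. Of 9 endothelial markers tested 9 were positive and 5 called, and the summed level of the list was 8.85 to 9.0 in GOF papilloma against 6.76 to 6.93 in control papilloma. Of 6 Langerhans and dendritic cell markers 6 were positive and 3 called, and of 5 neutrophil and mast cell markers 5 were positive and 1 called (Cma1). Of 8 fibroblast markers 7 were positive (median 0.69) and 0 called. T cell markers were at or below background in both papilloma groups. The part of these cells in the papilloma result was not tested.

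In KO carcinoma the markers lay the other way. Of the 12 macrophage, 9 endothelial and 8 fibroblast markers 0 were positive, and 0 were called. The log2 of the summed macrophage level was 9.0 to 9.25 in KO carcinoma and 9.04 to 10.6 in control carcinoma, that of the endothelial list 8.55 to 8.59 against 8.85 to 9.70, and that of the fibroblast list 11.4 to 12.1 against 11.7 to 12.95. The higher end of each control range was control carcinoma replicate 2, the array with the lowest values of the mitochondrial ribosome genes. The part of these cells in the carcinoma result was not tested.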

How the data were processed

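The authors deposited 1 table of log2 values for all 8 arrays, made with RMA from the affy package per the submitters' processing notes, which give no versions. The 2 tumour types differed in scale and decimals and were treated as normalized separately. Of 45141 probe sets, 28898 carried 1 gene symbol in the platform annotation. Probe sets brighter than the overall median (log2 4.23) on 2 or more arrays were kept, a level below the background of the carcinoma arrays, which 74 of the 79 genes exceeded on 2 papilloma arrays and 79 on 2 carcinoma arrays. The brightest probe set stood for each gene, and 9 of the 79 rested on probe sets of the s or x type, which can match related transcripts. These were Gfm1, Mrpl11, Mrpl19, Mrpl37, Mrpl38, Mrpl48, Mrps12, Mrps24 and Tufm.

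limma 3.58.1 in R 4.3.3 (lmFit, eBayes) was fitted to the deposited log2 values with 1 mean per group (4 residual and 2.67 prior degrees of freedom), with Benjamini-Hochberg adjustment over 13939 genes. The scripts were tested on simulated data. Members and lists were chosen with earlier results of these data known. Named genes were the 10 with the smallest p and the 5 with the lowest fold change in each comparison, the factors, the Mrps18 paralogs, genes at background on both arrays of a group and, for other lists, some of the 2 with the smallest p in each comparison. Mrps12, Mrps25, Mrps27, Mrps35, Mrps36, Mrpl20, Mrpl35 and Mrpl52 were chosen after their values were seen. Motifs were searched in RefSeq promoters of GRCm38.p6, 250 bases before to 50 after the start. Alternatives covered the replicate number, the filter, the probe set, the normalization, the variance prior and each array left out. The number of arrays limits precision.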

Additional observations from a re-analysis of the deposited data

Results flagged for a closer look

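Among the genes of the mitochondrial ribosome, 2 lay below both controls on both GOF arrays and above both controls on both KO arrays. For Mrpl1 the log2 fold change in GOF papilloma minus that in KO carcinoma was -1.10 (adjusted p = 0.221 by limma), and for Mrpl21 it was -0.50 (adjusted p = 0.510 by limma). Mrpl21 read 8.33 and 8.52 on the GOF arrays against 8.58 and 8.55 on the control papilloma arrays, and 9.88 and 9.76 on the KO arrays against 9.74 and 9.18 on the control carcinoma arrays. The dimmer probe set of Mrpl21 gave -0.16 in GOF papilloma and -0.03 in KO carcinoma. For Mrpl1 the split rests on the brightest probe set. Another probe set of Mrpl1 gave 0.35 in GOF papilloma, of the opposite sign, and was below background in carcinoma.

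Among the other named genes of mitochondrial gene expression, 3 were split the same way. The difference was -1.14 for Oxa1l (adjusted p = 0.102 by limma), -1.08 for Tbrg4, an RNA-processing gene (adjusted p = 0.122 by limma), and -0.88 for Pprc1 (adjusted p = 0.151 by limma). Of all genes tested, 9.38% had groups apart in opposite directions, and none of these 5 differences passed the threshold.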

How the results depend on the processing

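In GOF papilloma the median log2 fold change of the 79 genes was 0.23 to 0.53 with arrays left out, and in KO carcinoma 0.20 to 0.54, and both were positive under every alternative run. Members called stayed at 0 in KO carcinoma, and in GOF papilloma were 0 to 2, with 2 (Mrpl27 and Mrps14) without either control carcinoma array. At least 1.5-fold higher in all array pairs were 3 to 27 genes with arrays left out in GOF papilloma (27 without control papilloma replicate 1, 13 without GOF replicate 2) and 0 with averaged probe sets. In KO carcinoma they were 2 to 21 (21, 5 and 9 without control carcinoma replicate 1, control carcinoma replicate 2 and KO replicate 1), 1 with averaged probe sets, 1 without s and x type probe sets and 4 with median centring. Genes above both controls in KO carcinoma numbered 41 to 71 over all alternatives, and with arrays left out 46 to 71, with 71 without control carcinoma replicate 1. Positive genes numbered 62 to 72 in GOF papilloma and 60 to 75 in KO carcinoma.

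Over all genes, 1 to 297 were called in GOF papilloma and 0 to 122 in KO carcinoma with arrays left out. The replicate block left 3 and 0 called, and 0 of the 79 genes in each comparison. Same-numbered arrays had deviations correlated at 0.00179 in papilloma and 0.125 in carcinoma, and the labels do not say that a number pairs arrays. In KO carcinoma 0 genes were called with the 4 arrays alone, 0 with the stricter filter, 0 with averaged probe sets, and 32 with the trended and robust prior. The cause was not tested.

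Of 798 values of named genes under the alternatives, 779 kept direction and call, 4 passed the threshold and 15 turned sign, all with an array left out. Their ranges with arrays left out were, in KO carcinoma, -0.38 to 0.15 for Mrpl14, -0.36 to 0.067 for Mrpl17, -0.39 to 0.20 for Mrps11, -0.40 to 0.080 for Mrps6 and -0.23 to 0.32 for Mtif2. In GOF papilloma they were -0.14 to 0.14 for Mrpl47, -0.17 to 0.023 for Mrps18b, -0.16 to 0.42 for Mrrf and -0.45 to 0.32 for Mtif2.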
